A study of Rattus norvegicus with 12 samples.

Results

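The genes described are the rat collagen chain genes, taken as every named gene on the array whose symbol is Col, a number, a and a number. The rule found 18 genes among the 15159 named genes of the array, while the RefSeq table used for naming lists 44 such symbols. Of the 18 genes, 7 code for fibrillar chains (Col1a1, Col1a2, Col2a1, Col3a1, Col5a1, Col5a3 and Col11a2), 2 for basement membrane chains (Col4a1 and Col4a4) and 9 for other types (Col6a2, Col7a1, Col8a1, Col9a1, Col9a2, Col13a1, Col14a1, Col18a1 and Col23a1). The other 26 symbols were not measured under this rule and are not described.

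Collagens are triple helices wound from 3 chains that share a glycine repeat. Fibrillar types assemble outside the cell into the fibers that give the endoneurium and epineurium of a peripheral nerve their strength. Type IV forms the sheet-like networks of the basement membranes around Schwann cells and vessels, and the remaining types coat fibrils, link them to basement membranes or span the cell membrane. Fibroblasts are the main source of fibrillar collagen in nerve, and the parenchyma of the spinal cord is poor in it.

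The arrays held Cy3-labelled total RNA of sciatic nerve, dorsal root ganglia (DRG) and dorsal spinal cord of 8-week-old female rats, 1 array per condition and a pool of 3 rats on each of the 12 arrays. The wild-type rats were Sprague-Dawley rats taken 12 days after the injection, and the nude rats were athymic Hsd:RH-Foxn1rnu rats, which lack mature T cells, taken after 7 days. The left sciatic nerve received 50 μg of the myelin basic protein peptide MBP84-104 in 5 μl and the right nerve PBS. The treated arrays were therefore the left nerve, the left DRG and the lumbar enlargement of the cord, and their controls were the right nerve, the right DRG and the thoracic cord above the enlargement. The treated and control arrays of the cord thus also differ in spinal level. Strain, day after injection and rat type cannot be told apart, and neither can slide and rat type for the DRG and the cord, because the 8 arrays of 1 slide held all nude arrays and the wild-type nerve and the 4 arrays of the other held the wild-type DRG and cord. Both arrays of each treated and control pair shared a slide.

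Levels are given as the log2 spot signal minus the median of the same array, so that 0 is the median probe of that array. Levels of different genes come from different probes and are not ranked against each other. Spots well above background made up between 59.5% and 76.9% of an array, and no spot was saturated. The tissues carried their markers: the summed signal of the 9 sensory neuron genes on the array was between 677 and 783 array medians in DRG and at most 28.3 elsewhere, while the oligodendrocyte and astrocyte genes summed to between 792 and 1211 in cord and at most 78.9 elsewhere. Of the 18 collagen genes, 14 were well above background on every array. Col7a1, which forms the anchoring fibrils of skin, and Col13a1, a transmembrane collagen of neuromuscular junctions, were well above background on none. Col4a4, best known from the kidney glomerulus, passed on 2 arrays (nude contralateral nerve and wild-type injected-side DRG) and Col23a1, another transmembrane collagen, on 7. Where a collagen probe was spotted repeatedly, the SD between its spots on an array had a median of 0.056, which is technical error within an array and holds nothing of the spread between rats.

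Type I and type III collagen, the main fibrils of connective tissue, had their highest levels in nerve and their lowest in cord. Col1a1, the α1 chain of type I, lay at 11.12, 11.24, 11.22 and 11.47 on the wild-type injected, wild-type contralateral, nude injected and nude contralateral nerve arrays, at 8.63, 8.43, 8.29 and 8.31 on the DRG arrays in the same order, and at 4.54, 4.63, 4.97 and 4.93 on the cord arrays. The 3 tissues did not overlap. Col3a1, the chain of type III, lay between 11.18 and 12.10 in nerve, between 8.89 and 9.36 in DRG and between 5.00 and 5.60 in cord. Col1a2, the α2 chain of type I, followed the same order with 11.40 to 11.78, 9.60 to 9.80 and 5.75 to 6.42. In every tissue the 4 arrays of each of these genes spanned less than 1 log2 unit, while neighbouring tissues lay further apart than that.

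**Figure D1:**
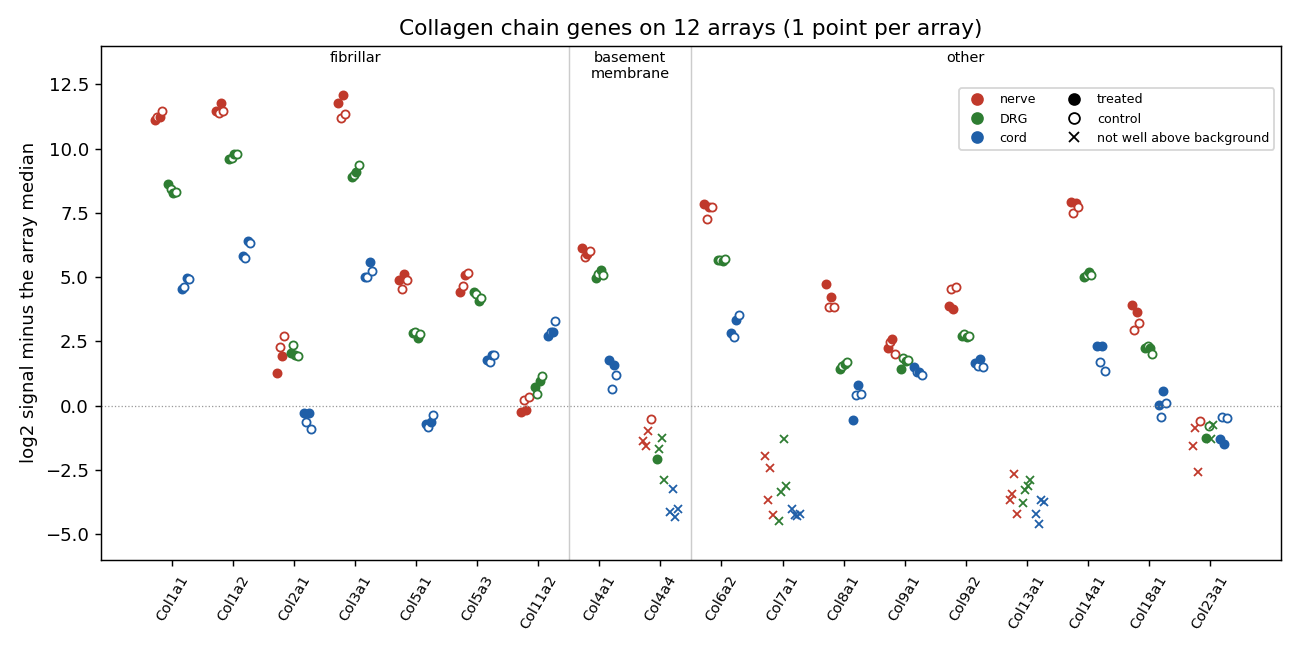
Each point is 1 array, with the log2 signal minus the array median on the y axis and the 18 collagen genes on the x axis, colored by tissue; filled circles are treated, open circles control and crosses signals not well above background. Col1a1, Col1a2 and Col3a1 step down from nerve to DRG to cord without overlap, Col11a2 steps up, and Col7a1 and Col13a1 hold crosses only.

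Differences between tissues were tested on the 6 control arrays alone, with limma on log2 signals, rat type as a covariate and Benjamini-Hochberg adjustment over 10911 genes. Each tissue then had 2 pools, 1 per rat type, and nothing in the labels says more about how the pools relate. A gene counts as called at an adjusted p under 0.05. Of the 18 collagen genes 15 could be tested, all but Col4a4, Col7a1 and Col13a1. Between nerve and cord, 13 of the 15 were higher in nerve and Col11a2 was lower, whereas 29.2% of all genes tested were higher and 23.1% lower. Between nerve and DRG, 10 of 15 were higher in nerve and none lower, against 30.6% and 11.1% of all genes. Of the 15, 11 had an unadjusted p under 0.05, as had 50.6% of all genes. Without the wild-type contralateral nerve 1 collagen, Col11a2, was called lower in nerve. Between DRG and cord, 12 of 15 were higher in DRG and Col11a2 was lower, against 20.9% and 29.4% of all genes. The median difference of the 15 genes was 3.42 for nerve minus cord, where that of all genes was 0.13, and 1.72 for nerve minus DRG, where that of all genes was 0.32. For DRG minus cord the medians were 2.60 and -0.18. The split over all genes depended on the scaling. Nerve against DRG gave 3342 higher and 1213 lower calls here but 1611 and 1604 with the 75th percentile, and DRG against cord 2276 and 3208 here but 2725 and 2398. The collagen counts with the 75th percentile were 8 higher and 1 lower for nerve against DRG and 13 higher and 1 lower for DRG against cord.

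Among fibrillar chains, 6 of 7 were higher in nerve than in cord. Col1a1 had the widest gap of all members, 6.57 ± 0.23 (log2 difference ± SE, limma adjusted p = 1.3e-07), which is 95.1-fold. Col3a1 followed with 6.13 ± 0.23, or 70.2-fold, Col1a2 with 5.40 ± 0.24 and Col5a1, the type V chain that sets fibril diameter, with 5.30 ± 0.24. Col5a3, a type V chain, was higher in nerve by 3.06 ± 0.25, and Col2a1, the main fibrillar collagen of cartilage, by 3.27 ± 0.27. The fibrillar chains separated again between nerve and DRG. There Col1a1 (2.98 ± 0.23), Col3a1 (2.10 ± 0.23), Col5a1 (1.89 ± 0.24) and Col1a2 (1.72 ± 0.24) were higher in nerve, while Col5a3 (0.62 ± 0.25, adjusted p = 0.070) and Col2a1 (0.35 ± 0.27, adjusted p = 0.30) did not pass the limma test. For Col2a1 the step therefore lay between DRG and cord, where the difference was 2.92 ± 0.27. Its direction between nerve and DRG was not fixed and ran from -0.40 to 0.49 over 17 settings of the fit.

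The other collagens with high nerve signals stepped down in the same order. Col14a1, a fibril-associated collagen that binds the surface of type I fibrils, was 6.10 ± 0.24 higher in nerve than in cord and 2.53 ± 0.24 higher than in DRG. Col6a2, a chain of the beaded filaments around cells, differed by 4.40 ± 0.26 and 1.80 ± 0.26, and Col8a1, a short-chain collagen of vessels, by 3.42 ± 0.22 and 2.25 ± 0.22. Col9a2, a fibril-associated chain of cartilage, differed by 3.05 ± 0.22 and 1.84 ± 0.22. Col4a1, an α chain of the ubiquitous type IV network, was 4.99 ± 0.24 higher in nerve than in cord and 0.80 ± 0.24 higher than in DRG (limma adjusted p = 0.025), and Col18a1, whose product sits in basement membranes and releases endostatin, was 3.25 ± 0.27 and 0.92 ± 0.27 higher (adjusted p = 0.021 for the second). The second, dimmer probe of Col4a1 had a mean of 3.22 over the 4 nerve arrays, 1.59 in DRG and -1.61 in cord. Over 17 settings of the fit between nerve and DRG, Col4a1 passed in 9 and Col18a1 in 11. Col23a1 passed no test between tissues, with adjusted p of 0.34, 0.90 and 0.27, and its control signals in wild-type nerve and nude DRG were not well above background.

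**Figure D2:**
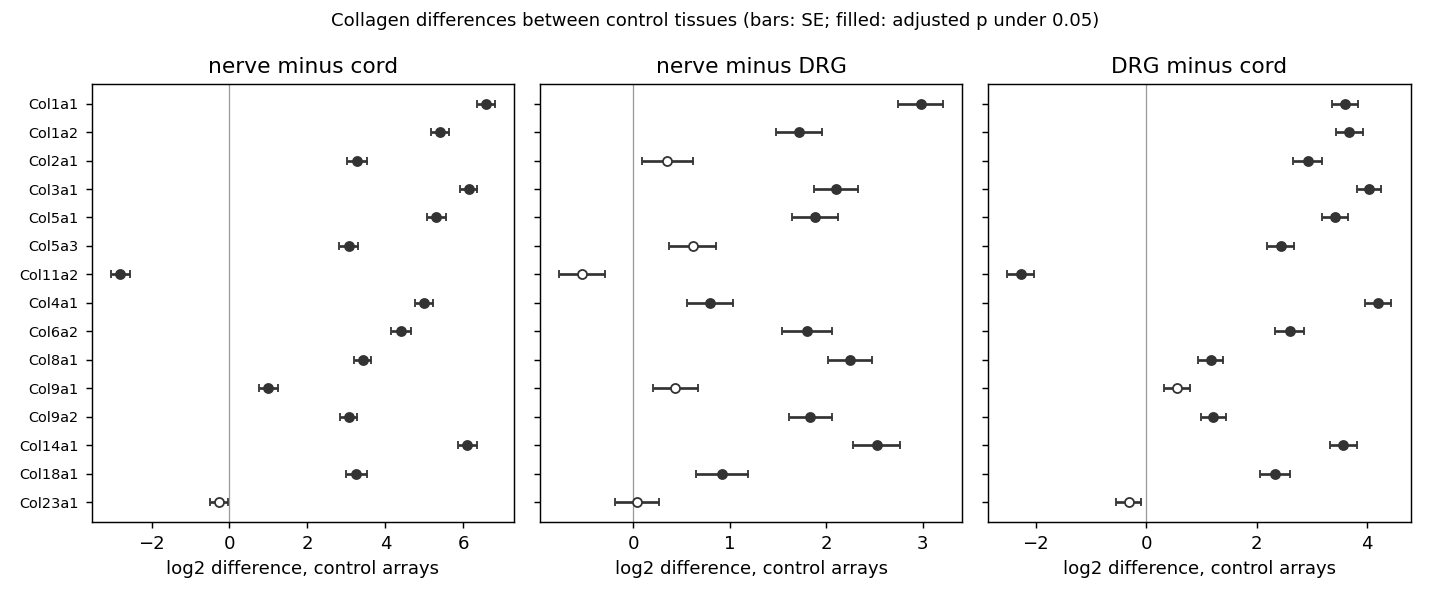
Points are limma log2 differences between control tissues (x axis) for the 15 collagen genes tested (y axis), with bars of 1 SE, filled where the adjusted p was under 0.05. Col1a1, Col3a1 and Col14a1 lie above 6 for nerve minus cord, and Col11a2 is the filled point to the left of 0 there and for DRG minus cord.

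Col11a2, a chain of type XI collagen that nucleates thin fibrils in cartilage, ran the other way. Its levels were -0.26, 0.21, -0.18 and 0.35 on the nerve arrays (wild-type injected, wild-type contralateral, nude injected, nude contralateral), 0.71, 0.46, 0.94 and 1.17 on the DRG arrays, and 2.70, 2.89, 2.86 and 3.29 on the cord arrays. All cord arrays lay above all DRG arrays, and all DRG arrays above all nerve arrays. In the control arrays it was lower in nerve than in cord, with a log2 difference of -2.80 ± 0.24 (limma adjusted p = 6.5e-06), and lower in DRG than in cord, with -2.27 ± 0.24 (adjusted p = 6.2e-05). Against DRG the nerve difference of -0.53 ± 0.24 did not pass (adjusted p = 0.10), and it passed in 6 of 17 settings. A second, dimmer probe of Col11a2 lay between -0.26 and 0.05 in cord and between -1.62 and -1.19 in nerve, where it was well above background on 1 of 4 arrays. Both probes were thus highest in cord. The marker sums of oligodendrocytes and astrocytes and of leptomeninges were also highest in cord, the latter at 876 to 1807 array medians against 20.3 to 29.0 in nerve, and their part in the Col11a2 result was not tested.

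In a whole tissue, fewer cells of a type and less RNA per cell cannot be told apart. The summed signal of 9 fibroblast markers on the array, among them Dcn, Gsn and Mfap5, was between 4940 and 6479 array medians in nerve, between 1056 and 1464 in DRG and between 266 and 366 in cord. It stepped in the same order as most collagens. All 9 were higher in nerve than in DRG and than in cord by the limma test, against 30.6% and 29.2% of all genes. Sums for vascular endothelium (48.5 to 54.5, 33.9 to 35.5 and 13.9 to 18.4) and macrophages (2261 to 3740, 924 to 1123 and 360 to 419.9) took the same order. Schwann cell markers did not, with 1959 to 3836 in nerve, 1678 to 2339 in DRG and 1832 to 2663 in cord, a list that shares Mag with the oligodendrocyte list. The part of cell numbers in the collagen differences was not tested.

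The regions before the annotated RefSeq starts are shown for 3 genes that stepped down together from nerve to cord and for Col11a2, which stepped up. Each is the 250 bases before the start in build GRCr8, 5′ to 3′ on the strand of the gene. Capitals mark a CCAAT box (the letters CCAAT), a GC box (the letters GGGCGG) or a TATA box (the letters TATAAA) on either strand, so that a CCAAT box on the other strand reads ATTGG. None of these motifs is contained in another, but copies can overlap.
Col1a2 (chr4:33518307-33518556, plus strand): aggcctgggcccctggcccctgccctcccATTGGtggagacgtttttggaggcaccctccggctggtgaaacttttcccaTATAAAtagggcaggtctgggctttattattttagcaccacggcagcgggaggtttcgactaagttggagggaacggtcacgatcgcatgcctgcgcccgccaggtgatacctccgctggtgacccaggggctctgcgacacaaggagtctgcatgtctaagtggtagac
Col5a1 (chr3:31606630-31606879, plus strand): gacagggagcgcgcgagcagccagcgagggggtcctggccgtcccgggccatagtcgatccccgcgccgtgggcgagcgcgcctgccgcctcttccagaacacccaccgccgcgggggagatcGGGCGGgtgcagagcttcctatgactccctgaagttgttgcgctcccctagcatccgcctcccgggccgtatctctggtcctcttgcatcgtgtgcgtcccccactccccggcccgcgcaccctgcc
Col4a1 (chr16:84885347-84885596, plus strand): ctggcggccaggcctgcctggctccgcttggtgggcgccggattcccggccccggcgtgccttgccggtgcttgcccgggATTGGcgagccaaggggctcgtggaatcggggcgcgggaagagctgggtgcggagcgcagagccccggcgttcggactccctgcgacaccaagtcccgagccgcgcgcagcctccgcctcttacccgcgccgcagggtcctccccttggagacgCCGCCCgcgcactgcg
Col11a2 (chr20:4817649-4817898, minus strand): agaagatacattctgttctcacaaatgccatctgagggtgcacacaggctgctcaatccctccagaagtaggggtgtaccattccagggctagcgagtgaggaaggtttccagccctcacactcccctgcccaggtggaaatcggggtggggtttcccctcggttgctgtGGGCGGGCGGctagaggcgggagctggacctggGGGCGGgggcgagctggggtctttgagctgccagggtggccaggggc
Col1a2 holds a CCAAT box and a TATA box, Col5a1 1 GC box, and Col4a1 1 CCAAT box and 1 GC box. Col11a2 holds 3 GC boxes, of which 2 overlap, and neither of the other motifs. Regions of this kind, called promoters here without a test of where transcription begins, were found for 13 of the 18 genes. Of these, 8 hold the GC box, 3 the CCAAT box and 2 the TATA box, while of all 33469 promoters of this length 30.5%, 34.0% and 12.9% do. The median share of the bases G and C was 62.8% in the collagen promoters and 51.2% in all promoters. Its part in the GC box count was not tested. A match is a description of letters and not a binding site.

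For 6 of the collagen genes the array has more than 1 probe, and for Col9a1 they disagreed. Col9a1 is a chain of type IX collagen, which decorates cartilage fibrils. The probe with the highest mean over all 12 arrays, which stands for the gene although it was the dimmest of the 3 in nerve, was between 2.01 and 2.58 in nerve, 1.41 and 1.84 in DRG and 1.21 and 1.49 in cord, a step of 1.00 ± 0.23 from nerve to cord (limma adjusted p = 0.0052). The second probe fell from between 2.51 and 3.32 in nerve to between -1.73 and -1.11 in cord, and the third from between 2.80 and 3.53 to between -4.36 and -3.91, where no cord array had it well above background. With the mean of the probes the gap between nerve and cord grew to 3.81. Which probe reports the transcript was not tested, so the small step of Col9a1 across tissues is that of 1 probe. Both probes of Col1a1 and both of Col14a1 stepped down from nerve to cord.

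**Figure D3:**
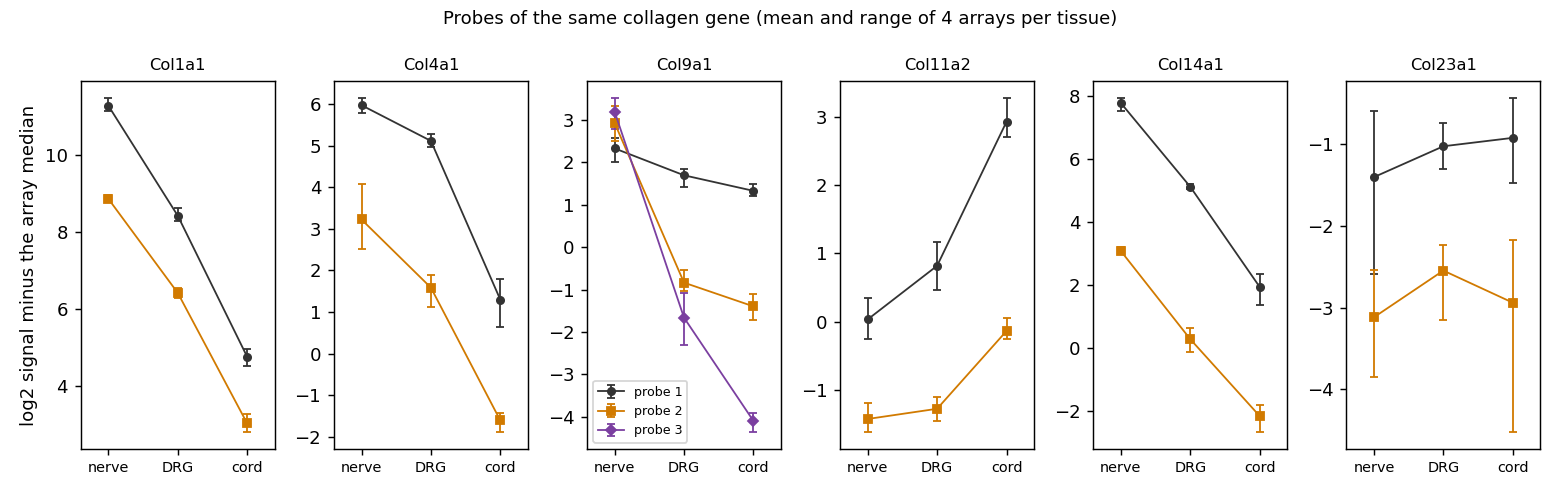
For the 6 collagen genes with several probes, points are the mean log2 signal minus the array median over the 4 arrays of a tissue, bars the range, and each line 1 probe (probe 1 has the highest mean over all arrays and is the one reported). The probes of Col1a1, Col4a1 and Col14a1 run side by side, whereas probes 2 and 3 of Col9a1 fall below -1 in cord while probe 1 stays above 1.

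Collagens were also compared between wild-type and nude controls. In the contralateral nerve, the wild-type minus nude difference of the 14 genes measured ran from -0.50 to 0.48 with a median of -0.23, the same as the median of all 9655 genes (-0.23). In DRG it ran from -0.71 (Col11a2) to 0.44 (Col2a1), and in thoracic cord from -0.84 (Col6a2) to 0.36 (Col14a1). In cord the collagen median was -0.24, where all genes had -0.01, and in DRG the medians were 0.04 and -0.03. No collagen gene reached a 2-fold difference in any tissue, and of all genes 2.65%, 2.25% and 0.574% did in nerve, DRG and cord. These are differences of 1 array against 1 array with no replicate check.

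The next question was whether the MBP84-104 injection moved the collagens. With 1 array per condition a single pair allows no test, so genes at least 2-fold apart were counted. In the wild-type nerve 1 of 14 collagen genes measured was past 2-fold, Col2a1 at -1.02 on the log2 scale, against 8.78% of all 10191 genes. In the nude nerve 0 of 16 were, against 21% of all 9445 genes, but with normexp 7 of 14 were, all lower. Normexp also moved the median of all genes over both nerve pairs, from -0.20 to -0.40. Its share of all genes past 2-fold is not given, so the 7 are not read as a collagen result. Without normexp, the median difference of the collagens was 0.21 for wild-type and -0.02 for nude nerve, where all genes had -0.05 and -0.38. In the DRG 0 of 15 wild-type and 0 of 14 nude collagen genes were past 2-fold, against 1.01% and 1.07% of all genes. In the cord Col4a1 was past it in the wild-type pair (1.15) and Col23a1 in the nude pair (-1.01), 1 gene of 15 each, against 1.75% and 1.37%. Which gene lay past 2-fold depended on the scaling. With the 75th percentile it was Col18a1 (1.02) in the wild-type nerve, Col3a1 (1.05) in the nude nerve and Col14a1 (1.03) in the nude cord.

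Both pairs of a tissue were then combined, with limma's moderated variance over the 6 pair differences, to ask for a difference shared by wild-type and nude rats. The spread between the 2 pairs also holds strain and day. In the nerve 14 collagen genes were tested among 9383, and 2 were higher and 2 lower in the injected nerve, where 6.36% of all genes were higher and 18.2% lower. The calls over all genes split as 597 higher and 1704 lower here and as 782 and 1093 with the 75th percentile. The median difference of all genes was -0.20 with median scaling and -0.02 with the 75th percentile. The same 4 collagens, Col2a1, Col9a2, Col3a1 and Col18a1, passed under the 75th percentile, quantile and cyclic loess scaling. None of the 4 passed with normexp background correction, which called 0 of all 9260 genes in nerve and so cannot single out these 4. Without filter and floor 208 genes were called higher and 271 lower, and none of the 4. A fit to the 2 nerve pairs alone called 378 genes higher and 765 lower, and none of the 4.

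Col3a1, the type III chain laid down early in repair tissue, rose in the injected nerve. Its level was 11.77 after injection and 11.18 contralaterally for wild-type rats, and 12.10 against 11.34 for nude rats. Both injected arrays lay above both contralateral arrays. The mean difference was 0.67 ± 0.19, or 1.59-fold (limma adjusted p = 0.029). The nude pair alone gave 0.75 and the wild-type pair alone 0.59, and a single pair allows no test. With normexp background correction, where no gene at all was called, the difference was 0.14. Col3a1 was also not called without filter and floor or with the nerve pairs alone, fits that still called other genes. The spot error of each pair was at most 0.047.

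Col18a1 rose as well. It lay at 3.90 against 2.96 for wild-type and at 3.63 against 3.21 for nude rats, with no overlap between the sides. The mean difference was 0.68 ± 0.20, or 1.60-fold (limma adjusted p = 0.034). The nude pair alone gave 0.41, and a single pair allows no test. The call was lost with normexp, where the difference was 0.19 and no gene at all was called. It was also lost without filter and floor and with the nerve pairs alone, fits that still called other genes. Col8a1 stood at 4.72 against 3.86 and at 4.23 against 3.86, a difference of 0.62 ± 0.28 that did not pass (adjusted p = 0.13).

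Col2a1 and Col9a2, both best known from cartilage, fell. Col2a1 lay at 1.28 in the injected against 2.30 in the contralateral wild-type nerve and at 1.94 against 2.72 in the nude nerve, so both injected arrays were below both contralateral ones. The difference was -0.90 ± 0.20 (limma adjusted p = 0.0090). Col9a2 lay at 3.89 against 4.56 and at 3.76 against 4.63, a difference of -0.77 ± 0.19 (adjusted p = 0.014). The wild-type pair alone gave -0.67 for Col9a2, and a single pair allows no test. For Col2a1 the fits that lost the call gave adjusted p of 0.17 (normexp, where no gene at all passed), 0.082 (no filter and floor) and 0.051 (nerve pairs alone). For Col9a2 they gave 0.18, 0.096 and 0.11. Col11a2 differed by -0.48 and -0.53 in the pairs without passing (adjusted p = 0.087), and the mean of its probes gave a difference of 0.012.

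The type I chains stayed close to their controls in the nerve. Col1a1 differed by -0.12 (wild-type) and -0.25 (nude), and Col1a2 by 0.07 and 0.30. Their means were -0.18 ± 0.19 and 0.18 ± 0.18, with limma adjusted p of 0.48 for each. Col5a1 gave 0.37 and 0.22, Col14a1 0.43 and 0.12, Col6a2 0.56 and 0.00, Col4a1 0.36 and -0.10, Col5a3 -0.22 and -0.07 and Col9a1 -0.25 and 0.57, none of which passed. The second probe of Col4a1 gave 0.48 and 1.57, and that of Col9a1 -0.22 and -0.82. Col4a4 and Col23a1 were well above background in the nude contralateral nerve and not in the injected one, so that only bounds could be given, at least 1.06-fold and at least 1.02-fold lower.

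**Figure D4:**
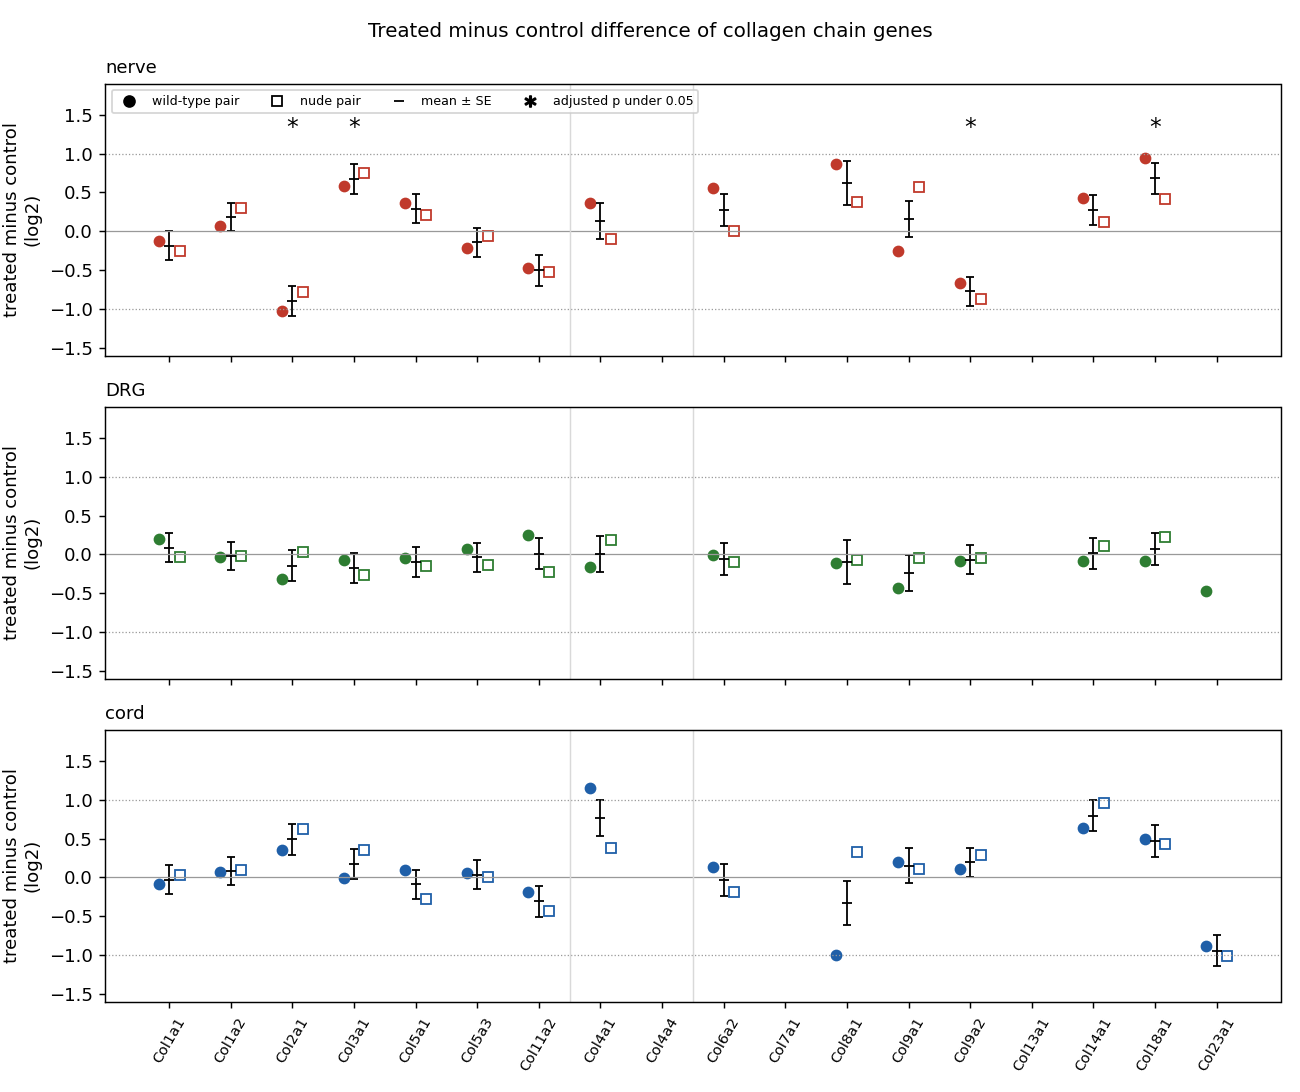
For each collagen gene (x axis), points are the treated minus control log2 difference (y axis) in nerve, DRG and cord. Filled circles are the wild-type pair and open squares the nude pair, drawn where both arrays were well above background. Black marks the mean of the 2 pairs with the limma SE, whose variance draws on the pairs of all tissues and is moderated over genes. Dotted lines are at 2-fold, and stars mark a limma adjusted p under 0.05. Stars stand over Col2a1, Col3a1, Col9a2 and Col18a1 in nerve and over no gene in DRG or cord.

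Markers of other cells moved in the injected nerve beside the collagens. Of all genes tested there, 6.36% were higher by limma and 18.2% lower, with a median of -0.20. Of the 9 fibroblast markers 3 were lower and none higher, with a median of -0.41. Of 6 adipocyte markers measured all 6 were lower, with a median of -2.27, and of 12 Schwann cell markers 7 were lower. Among 12 macrophage markers 3 were higher. Of the 7 cartilage markers on the array, Acan, Hapln1 and Chad passed the background on no nerve array. Cnmd, an inhibitor of vessel growth in cartilage, lay at 6.05 against 6.96 for wild-type and at 5.81 against 7.44 for nude rats, and Epyc, a cartilage proteoglycan, at 1.87 against 2.63 and at 1.62 against 3.05. Both were lower on the injected side in both pairs, as Col2a1 and Col9a2 were, whereas Comp, a matrix protein of cartilage, differed by 1.01 and -0.75. The part of these cells in the collagen differences was not tested. Skeletal muscle markers took opposite directions, with 6 of 11 past 2-fold higher in the wild-type and 5 of 9 lower in the nude pair. Of all genes, 8.78% and 21% were past 2-fold in these pairs in either direction.

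In the DRG none of the 14 collagen genes tested passed, while 0.0528% of 9470 genes did, all 5 of them higher. At an unadjusted p under 0.05 the collagens held 0, where 2.25% of all genes passed. Their wild-type differences ran from -0.43 (Col9a1) to 0.25 (Col11a2) and their nude differences from -0.26 (Col3a1) to 0.23 (Col18a1). Col3a1, which rose in the nerve, lay at 8.89 against 8.97 and at 9.09 against 9.36. The nerve minus DRG contrast of the treated difference was called for none of 14 collagens by limma and for 6.35% of all genes. At an unadjusted p under 0.05 it held 3 of the 14 collagens and 27.9% of all genes. For Col3a1 it was 0.84 ± 0.27 (adjusted p = 0.085).

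In the cord no collagen passed either, while 0.322% of 10572 genes did, and 5 of the 15 collagens had an unadjusted p under 0.05, as had 9.08% of all genes. Col14a1 lay at 2.34 in the lumbar against 1.71 in the thoracic wild-type cord and at 2.31 against 1.35 in the nude cord, a difference of 0.80 ± 0.20 (limma adjusted p = 0.17). Col4a1 lay at 1.79 against 0.64 and at 1.57 against 1.19 (0.77 ± 0.23, adjusted p = 0.26). Its second probe gave -0.32 and -0.13. Col23a1 lay at -1.31 against -0.43 and at -1.48 against -0.47, a difference of -0.94 ± 0.20 (adjusted p = 0.15). For all 3 genes the lumbar arrays did not overlap the thoracic ones, which was not counted over all genes and is not read as a result. Of all genes, 69.9% went the same way in both cord pairs, as did 10 of the 15 collagens. Col8a1 took opposite directions, with -0.57 lumbar against 0.42 thoracic for wild-type and 0.79 against 0.46 for nude rats.

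The treated differences of nerve and cord were called apart by limma for 1 of 14 collagens, Col2a1, and for 5.12% of all 8976 genes. With quantile scaling, the deposited values, no filter and floor, and normexp, where no gene at all was called, Col2a1 was not called. Its cord levels were -0.28 against -0.63 for wild-type and -0.27 against -0.89 for nude rats, higher in the lumbar array each time. The cord difference of 0.49 was set against the nerve difference of -0.90, and the contrast was -1.39 ± 0.28 (limma adjusted p = 0.017). Col9a2 had a contrast of -0.97 ± 0.26 that did not pass (adjusted p = 0.061). In the same cord arrays the lumbar minus thoracic difference of Cnmd was 3.03 and 2.66, and that of Epyc at least 2.52 and 1.23. The other cartilage markers measured there did not share this size. Matn1 gave 0.32 and 0.27, Hapln1 0.04 and 0.39, Comp 0.09 and 0.03, and Chad was lower at -0.89 and -0.34. There 5 of 12 Schwann cell markers were called higher, against 0.322% of all genes called in either direction. Pmp22, a protein of peripheral myelin, differed by 2.34 and 1.82. The part of peripheral tissue in the cord values was not tested.

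The genes that make, trim, bind and break down collagen were described from lists, whose counts in nerve stand against 6.36% of all genes higher and 18.2% lower. Counts of 1 gene in lists this short are not read as results about the lists. The enzymes and chaperones of modification and folding counted 19 genes measured in nerve. Of these 2 were higher by limma and none lower, with a median of 0.06. P4ha3, a prolyl 4-hydroxylase subunit that stabilizes the triple helix, differed by 1.44 and 2.01, both lower bounds because the contralateral signal was not well above background, and its mean difference had an adjusted p of 0.0012. Trimming and crosslinking had 7 genes measured and 1 higher. This was Loxl1, a lysyl oxidase-like crosslinker, at 3.43 against 2.35 and at 3.61 against 2.59 (1.05 ± 0.22, adjusted p = 0.0075). Between control tissues, 16 of 18 modification genes and 7 of 7 trimming genes were higher in nerve than in cord, against 29.2% of all genes.

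Breakdown and uptake had 11 genes measured in nerve and 1 higher. Timp1, an inhibitor of the matrix metalloproteinases that cut collagen, lay at 9.63 against 7.47 for wild-type and at 9.82 against 7.68 for nude rats, a difference of 2.15 ± 0.19 (limma adjusted p = 9.6e-05). Of 5 receptors tested, Ddr2, a tyrosine kinase that binds fibrillar collagen, was lower, with differences of -0.59 and -1.18 and an adjusted p of 0.016. Itgb1 (0.26 and -0.28) and Itga1 (0.23 and -0.01), the chains of a collagen-binding integrin, did not pass. The basement membrane partners of type IV had 5 genes tested and none called, with differences of 0.63 and -0.20 for Agrn, 0.59 and 0.12 for Nid2 and 0.25 and -0.45 for Lama5.

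Of 16 proteoglycans and glycoproteins that sit on fibrils, 6 were higher and 3 lower, with a median of 0.51. Tnc, tenascin C of injured tissue, lay at 2.74 against 0.56 and at 2.83 against 0.77 (2.12 ± 0.19, limma adjusted p = 0.00018). Fn1, the fibronectin scaffold on which fibrils form, rose by 1.18 and 1.05, Postn, periostin, by 1.06 and 1.57, and Thbs1, thrombospondin 1, by at least 1.17 and by 2.53, with adjusted p of 0.0029, 0.013 and 0.0023. Of 10 TGF-β ligands and matrix regulators 3 were higher, among them Ltbp2, a microfibril protein, at 1.48 and 2.93, both lower bounds as well (adjusted p = 0.00085). In the DRG none of these 7 lists held a called gene, but only 0.0528% of all genes were called there. The absence is therefore not read as a result about the lists.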

How the data were processed

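Total RNA of 12 pools was hybridized to 1-color Agilent SurePrint G3 rat arrays. The authors extracted spot intensity with Feature Extraction (10.5 in the submitters' processing notes, 10.7.3.1 in the file headers), which subtracts local background and sets the flags, other values of 0 or 1. The deposited log2 values were normalized by the authors across arrays and served as an alternative. Strain and day of the wild-type rats follow the labels, from which the study's methods differ.

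Here log2 processed signals of spots without outlier flags were averaged per probe, and the array median was subtracted. A probe was well above background when all its spots were flagged so. Dimmer signals were raised to the lowest such signal of the array in differences. RefSeq accessions named 18006 of 30367 probes (GRCr8), and the probe brightest over all arrays stood for a gene. Normexp (offset 50) used the median spot signal. limma 3.58.1 in R 4.3.3 gave all adjusted p values, and Python 3.11.15 the rest. The fits were tested on simulated data. Collagens were grouped by type. List genes were named if 2-fold changed alike in both nerve pairs, otherwise the 3 with the widest wild-type nerve difference, and of markers the 3 brightest. The single cartilage markers were named after their values were seen. The members and lists were chosen with earlier results of these data known. Alternatives were the 75th percentile, quantile, cyclic loess, normexp, the deposited values, stricter or no detection, mean of probes, outlier spots kept, 3-fold, other array sets and left-out arrays.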

Additional observations from a re-analysis of the deposited data

Results flagged for a closer look

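The treated minus control difference of Col2a1 differed between nerve and cord by a limma contrast, -1.39 on the log2 scale with an adjusted p of 0.017 over 8976 genes. It was lower on the treated side in both nerve pairs (-1.02 and -0.78) and higher in both cord pairs (0.36 and 0.63). The contrast was not called with quantile scaling, normexp (where no gene at all was called), the deposited values or no filter and floor. The cord pair also differs in spinal level, and 5 of 12 Schwann cell markers were called higher in it, against 0.322% of all genes in either direction. Among cartilage markers Cnmd differed there by 3.03 and 2.66 and Epyc by at least 2.52 and 1.23. Matn1 differed by 0.32 and 0.27, Hapln1 by 0.04 and 0.39, Comp by 0.09 and 0.03 and Chad by -0.89 and -0.34. The part of these in the contrast was not tested.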

How the results depend on the processing

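The collagen counts between control tissues kept their main values within 1.5 times except for genes lower in nerve than in DRG. There the count was 0, and it was 1 (Col11a2) with the 75th percentile, cyclic loess, the treated-side arrays, all 12 arrays, all 12 arrays with slide as a term and the mean of both arrays, and between 0 and 1 with single arrays left out (1 without the wild-type contralateral nerve). The call of Col9a1 between nerve and cord was lost with normexp and without either thoracic array (0.57, 1.09 and 0.91).

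The 4 calls in the injected nerve became 0 with normexp, 0 without filter and floor and 0 with the 2 nerve pairs alone. With a pair left out the nerve holds a single pair, so calls from those fits are not counted. Normexp called 0 of 9260 genes there, of which 2268 had an unadjusted p under 0.05. The contrast between nerve and cord called 0 collagens with quantile scaling, normexp, the deposited values and no filter and floor, and 2 with all arrays well above background and with a mean-variance trend. The mean of probes turned the nerve difference of Col11a2 from -0.50 to 0.012.

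Counts past 2-fold are small and moved easily. In the wild-type nerve the gene lower became 1 higher (Col18a1) with the 75th percentile and cyclic loess, 0 with quantile scaling, normexp, the deposited values and a 3-fold threshold, and 2 (Col2a1 and Col7a1) without filter and floor. In the nude nerve 0 became 1 with the 75th percentile, cyclic loess and the half-of-spots rule, which was chosen after seeing the data, 3 without filter and floor and 7 (all lower) with normexp. In the DRG the counts without filter and floor were 1 for wild-type and 2 for nude rats. In the cord 1 became 0 with normexp, the mean of probes and 3-fold in both rat types, and in nude rats it became 1 higher (Col14a1) with the 75th percentile, quantile scaling and the deposited values, and 2 with cyclic loess. The cause of these moves was not tested, and the shares of all genes past 2-fold under these settings are not given.

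The treated minus control differences are already taken within a rat type and tissue, and the labels give no replicate numbers for another block. Dim signals limit Col4a4, Col7a1, Col13a1 and Col23a1, and the array number limits precision.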
